A study of Bos taurus and Sus scrofa with 6 samples.

Results

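Leydig cells of the pig testis were selected from single-cell RNA-sequencing libraries by transcripts of their own steroid pathway. Droplets gave the RNA of a cell a shared barcode and every captured molecule a tag of its own, the unique molecular identifier (UMI), by which amplified copies count once. Barcodes with at least 696, 2444 and 3457 UMIs in pigs 1, 2 and 3 were taken as cells. A cell was kept when the genes LHCGR, CYP17A1, CYP11A1, STAR, HSD3B1, INSL3 and CYP19A1, as far as the gene table lists them, had at least 4 UMIs spread over at least 3 genes. It was dropped when at least 2 genes had a UMI among the germ cell genes DDX4, DAZL, MAEL and TDRD1, among the Sertoli cell genes FSHR, AMH and CLDN11, or among the lymphocyte genes CD3E, CD3D and NKG7. The pig gene table lists 5 of the gate genes by symbol, and LHCGR and HSD3B1 carry no symbol there. This selected 1087 of the 9457 pig cells, or of 27966 cells in all libraries, with 831 in pig 1, 132 in pig 2 and 124 in pig 3. A further 2, 4 and 28 cells met the first condition but were dropped. The libraries came from testes of 3 mixed breed pigs aged 3 months and, for comparison, 3 Holstein cattle aged 4.5 months, all prepubertal, with no treatment or altered allele given for either group. Tissue was digested with trypsin, collagenase and DNase, and each animal gave 1 library. In the titles the same testis number stands on 2 libraries per species, whereas the methods describe different animals, and each library was counted as 1 animal.

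Leydig cells lie between the seminiferous tubules and turn cholesterol into androgens when luteinising hormone from the pituitary binds its receptor, LHCGR. STAR moves cholesterol into mitochondria, where CYP11A1 cuts its side chain to give pregnenolone, and HSD3B1 and CYP17A1 carry the product on towards androgens. INSL3 is a peptide hormone of Leydig cells that drives descent of the testis, and the boar is known for Leydig cells that also express CYP19A1, the aromatase that makes oestrogens, and that release large amounts of sulfated steroids and of the pheromone androstenone.

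The sequences just before 3 gate genes and before A2M, one of the genes that rose most, are shown to place a binding motif of NR5A1, the nuclear receptor that activates steroid pathway genes. Each is the stretch of 250 bases before the annotated gene start, 5′ to 3′ on the plus strand of Sscrofa11.1, from the RefSeq genome and annotation. They lie at chr2:59929341-59929590 for INSL3, chr5:62406678-62406927 for A2M, chr7:59172579-59172828 for CYP11A1 and chr15:48377347-48377596 for STAR. Capitals mark AAGGTCA, the core of the half-site that NR5A1 is known to bind, or its reverse complement TGACCTT, the only motif searched.
INSL3: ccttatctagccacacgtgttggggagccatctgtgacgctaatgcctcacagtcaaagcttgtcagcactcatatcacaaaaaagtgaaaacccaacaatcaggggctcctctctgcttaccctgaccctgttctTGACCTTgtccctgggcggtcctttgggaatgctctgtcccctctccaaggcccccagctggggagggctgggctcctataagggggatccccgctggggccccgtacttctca
A2M: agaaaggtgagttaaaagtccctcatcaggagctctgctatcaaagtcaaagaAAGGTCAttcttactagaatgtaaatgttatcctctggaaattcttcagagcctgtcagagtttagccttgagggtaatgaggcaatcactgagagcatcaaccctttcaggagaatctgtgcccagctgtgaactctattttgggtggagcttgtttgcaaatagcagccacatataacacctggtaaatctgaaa
CYP11A1: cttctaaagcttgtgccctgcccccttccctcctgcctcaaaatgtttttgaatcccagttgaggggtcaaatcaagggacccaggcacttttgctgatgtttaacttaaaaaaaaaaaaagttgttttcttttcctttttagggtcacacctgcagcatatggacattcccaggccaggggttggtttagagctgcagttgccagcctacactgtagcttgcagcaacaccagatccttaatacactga
STAR: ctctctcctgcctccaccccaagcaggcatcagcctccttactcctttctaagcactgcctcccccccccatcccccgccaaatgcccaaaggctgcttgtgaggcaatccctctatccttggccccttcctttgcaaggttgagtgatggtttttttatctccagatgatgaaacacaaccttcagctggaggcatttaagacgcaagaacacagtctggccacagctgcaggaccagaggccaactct
The motif stood 114 bases before INSL3 and 197 bases before A2M, and these letters were not in the windows of CYP11A1, STAR and CYP19A1. A2M was chosen with its match known. Among the 14 genes of largest change against other cells only A2M held the motif, and no window was taken for SULT1C3. Of the genes named in other comparisons, CXCL12 held it 170 bases and PDIA5 98 bases before the gene. Such a window held the motif for 612 of 19236 coding genes with a complete start, or 3.18%. Among 95 genes that were higher in Leydig cells and had a window, 3 held it, or 3.16%, which is close to the share of all genes. RefSeq gives CYP17A1 (chr14:113805616-113820445, minus strand) an incomplete start, so no window was taken for it. CYP19A1 (chr1:120596235-120627806) lies between the annotated genes CYP19A3 (chr1:120476890-120556103) and CYP19A2 (chr1:120652172-120695899), which are close copies of it. The authors' counting could have divided its reads among them, so its counts are uncertain.

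The libraries differed widely in depth. The deposited files hold 6245189, 40099873 and 33500750 UMIs for pigs 1, 2 and 3. Leydig cells had a median of 841, 3088 and 4360 UMIs, against 927, 3929 and 5993 in the other cells of the same pigs. Summed over Leydig cells, 848117, 470944 and 941870 UMIs stood behind each value given for a pig. Mitochondrial genes took 2.56%, 3.48% and 3.03% of these UMIs, against 1.38%, 2.54% and 2.01% in other cells, which was higher in all 3 pigs. Pairs of pig libraries shared 20, 9 and 9 cell barcodes, with 17.3, 10.0 and 12.1 expected by chance, and no shared barcode was a Leydig cell in both.

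The share of a cell's UMIs in the 5 gate genes, which the rule used and which is given as a description, varied widely among the selected cells. Its median was 3.45%, 2.90% and 3.64% in Leydig cells of pigs 1, 2 and 3, against 0.0996%, 0.0168% and 0.0200% in other cells. In pig 3 the 25th percentile was 0.223%, far below the median of the same cells. In total 58, 33 and 33 selected cells fell under 1% and held 18.8%, 31.99% and 57.3% of the UMIs of all selected cells, with median totals of 1855, 3851 and 12434 UMIs, and 773, 99 and 91 lay at or above it. Cells just inside the threshold, with exactly 4 gate UMIs, numbered 4, 10 and 12, and their median share was 0.122%, 0.0973% and 0.0324%. Cells just outside it, with 3 UMIs over 3 genes, numbered 11, 10 and 18, at 0.244%, 0.0509% and 0.0238%. A larger group had 4 or more UMIs over only 2 genes, with 310, 81 and 167 cells at 1.25%, 0.130% and 0.0413%, which in pig 1 was close to the 10th percentile of the selected cells, 1.26%. Outside the gate, 192, 5 and 0 cells reached 1%. The gate counts UMIs without regard to depth, and the selected cells under 1% were deeper than those at or above it, whose medians were 831, 2861 and 3941 UMIs. Results are therefore also given for the selected cells at or above 1%, a limit chosen after the data were seen. No doublet caller was run, and only the drop lists and an alternative without cells that held markers of macrophages, endothelium or red cells bear on mixed barcodes.

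**Figure D1:**
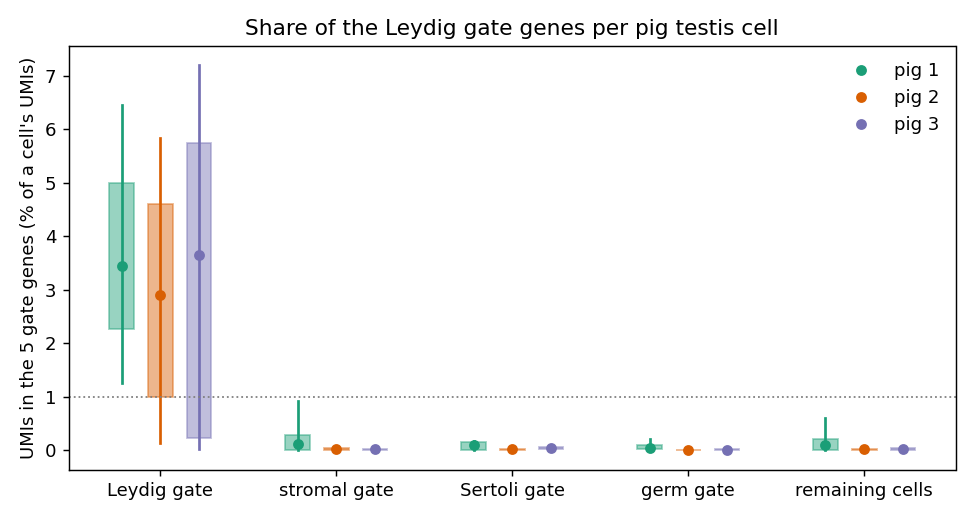
Share of each cell's UMIs that fell in the 5 gate genes (vertical axis, percent), for cells of the Leydig, stromal, Sertoli and germ gates and the remaining cells of each pig. Points are medians over cells, boxes span the 25th to the 75th percentile, lines the 10th to the 90th percentile, and the dotted line marks 1%. Medians of the Leydig gate lie at 3.45%, 2.90% and 3.64%, and their 10th percentiles in pigs 2 and 3 at 0.147% and 0.0322%.

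Every selected cell had a UMI of INSL3, and 98.6%, 98.5% and 93.5% had one of CYP17A1. The gate used these genes, so their levels are given as a description with no test. INSL3 reached 25309, 21548 and 15808 CPM (counts per 1000000 UMIs of the sum) in the summed Leydig cells of pigs 1, 2 and 3, against 1951, 196 and 180.1 CPM in other cells and 793, 54.9 and 118 CPM in germ cells, which should lack it. INSL3 had a UMI in 85.7%, 58.5% and 89.4% of germ cells and CYP17A1 in 22.9%, 14.6% and 14.3%, at median depths of 3906, 16447 and 18382 UMIs, so a single UMI of INSL3 did not set a cell apart. CYP17A1 was at 4396, 3609.8 and 2224 CPM against 237, 24.6 and 12.4 CPM in other cells. Both genes were highest in pig 1 and lowest in pig 3 over all selected cells, and this order was not there once cells under 1% were left out. CYP17A1 was then at 5253, 5111 and 5111 CPM, a mean of 5159 ± 82.2 (SD, n = 3), and INSL3 at 30647, 30519 and 36524 CPM. In the selected cells under 1% of pig 3, INSL3 was at 339 CPM and CYP17A1 at 68.6 CPM, and the other cells of that pig were at 180.1 and 12.4 CPM. The 1% limit used these genes as well.

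Of the 5 genes, STAR and CYP19A1 differed most between the pigs in cells at or above 1%. STAR was at 323, 191 and 676 CPM over all selected cells and at 366, 249.8 and 1535 CPM in those at or above 1%, highest in pig 3 in both. CYP19A1 was also highest in pig 3, at 322, 387 and 1070.4 CPM in these cells and 265, 269.7 and 464 CPM over all selected cells. CYP11A1 was at 1990.3, 902 and 857 CPM, highest in pig 1, and at 2344, 1221 and 1955 CPM above 1%, lowest in pig 2. STAR had a UMI in 26.96, 40.9 and 82.3 percent of selected cells, at the median depths of 841, 3088 and 4360 UMIs. In the deeper germ cells it had one in 5.71, 1.54 and 11.06 percent. CYP19A1 had a UMI in 21.9, 43.9 and 66.1 percent of selected cells and in 2.86, 6.15 and 6.45 percent of germ cells. The rule itself raises these shares in selected cells, so nothing is read from the difference. In cattle Leydig cells, selected by the same rule with LHCGR listed, CYP19A1 had 1 UMI in all 1995 cells, against 225, 127 and 437 UMIs in the pigs. LHCGR was at 81.8 ± 11.2 CPM in those cattle cells (SD, n = 3), with 0.612 ± 0.273 CPM in other cattle cells.

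**Figure D2:**
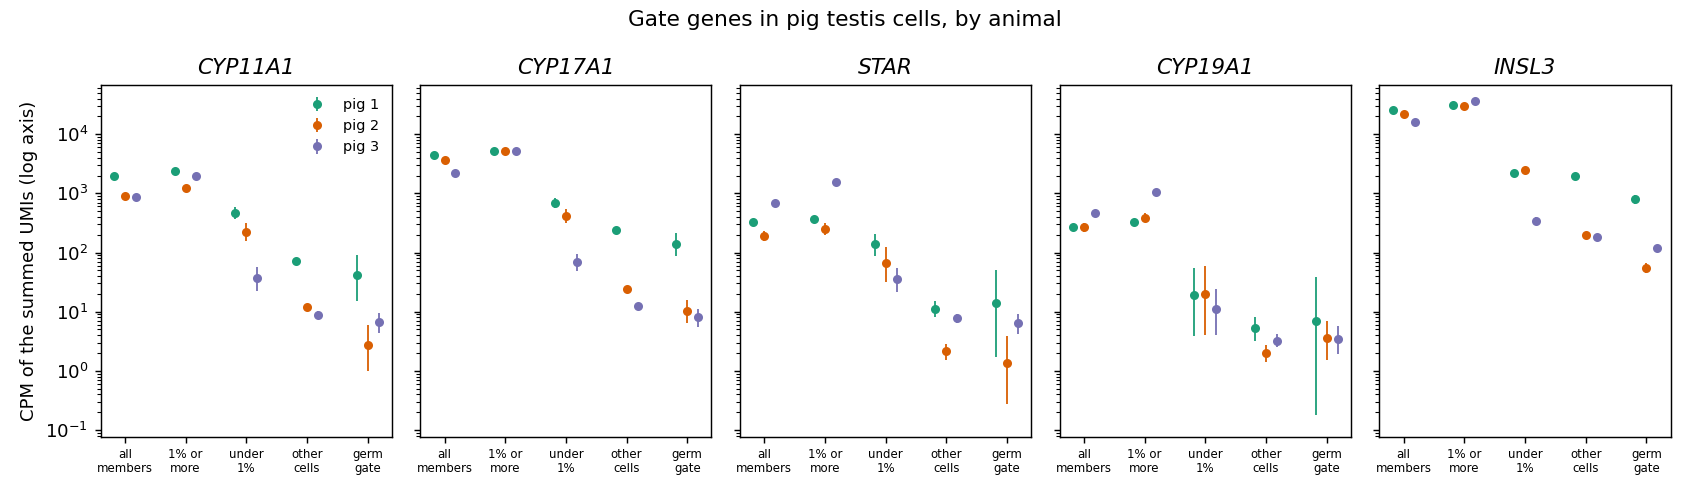
Summed UMI counts of the 5 gate genes as CPM (log axis) in each pig, for all selected cells, those at or above 1% and under 1% of UMIs in the gate genes, other cells and germ cells. Vertical lines are exact 95% Poisson intervals, which cover counting error only. At or above 1%, CYP17A1 is at 5253, 5111 and 5111 CPM and STAR at 249.8 to 1535 CPM, in cells that the rule and the 1% limit chose by these genes.

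The share of Leydig cells differed widely between the animals. They made up 25.6% of the cells of pig 1 (exact 95% binomial interval 24.1 to 27.1, counting error only), 3.36% of those of pig 2 (2.82 to 3.97) and 5.45% of those of pig 3 (4.55 to 6.46). The mean was 11.5% ± 12.3 (SD, n = 3), with pig 1 far above the others, and without pig 1 it was 4.40%. The same rule gave 21.4%, 7.03% and 10.0% in cattle, a mean of 12.8% ± 7.56, so the ranges of the species overlapped. In cattle 612, 22 and 28 cells outside the gate also had at least 1% of their UMIs in the gate genes, in cattle 1 nearly as many as the 686 inside it, and these count among the other cells of cattle. At or above 1% of UMIs in the gate genes the pig shares were 23.8%, 2.52% and 3.996%, and with every barcode of at least 500 UMIs taken as a cell they were 30.6%, 3.79% and 10.4%. Pig 1 also had the lowest UMI minimum, 696 against 2444 and 3457, and the part of depth and of cell recovery in the share was not tested.

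To find genes that mark pig Leydig cells beyond the gate, summed counts of Leydig cells and of all other cells were compared over the 3 pigs, with the gate and drop genes left out. Of 15211 genes tested with edgeR, 114 were higher in Leydig cells, or 0.749%, and 1 was lower, or 0.00657%, at an adjusted p under 0.05. Log2 changes are fitted fold changes of Leydig over other cells. Their standard error (SE) was calculated back from the test, as the absolute log2 change divided by the square root of the F statistic. Named genes are those of largest change. DHRS4, a reductase of retinoid and steroid ketones, was at 6044, 7676 and 3439 CPM in Leydig cells of pigs 1, 2 and 3 and at 450.0, 78.5 and 97.1 CPM in other cells (log2 change 4.76 with SE 0.72, adjusted p = 0.0199). RDH12, a retinal reductase, was at 53.1, 76.4 and 57.3 CPM against 4.404, 0.621 and 0.711 CPM and had the largest change by the rule used to name genes (log2 change 5.36 with SE 0.76, adjusted p = 0.0155). SULT1C3, a sulfotransferase of the cytosol, was at 1354, 1221 and 1806 CPM against 74.04, 10.2 and 26.9 CPM (log2 change 5.30 with SE 0.69, adjusted p = 0.00967). For each of these 3 genes the lowest Leydig value lay above the highest value of other cells, and the ratio of Leydig to other cells was smallest in pig 1. Genes were picked among the calls, so nothing is read from a lack of overlap, here or below. The share of all genes without overlap was not counted.

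A2M, PPP1R1B and other genes of largest change rose with them. A2M, a protease inhibitor (chr5:62406928-62483690), was at 2434, 2692 and 1179.6 CPM against 166, 41.7 and 39.9 CPM (log2 change 4.66 with SE 0.66, adjusted p = 0.0155). AGT, the precursor of angiotensin, was at 502, 446 and 280.3 CPM against 36.6, 3.68 and 6.60 CPM (log2 change 4.75 with SE 0.83, adjusted p = 0.0331). Neither, picked among the calls, overlapped with other cells. Both were lowest in Leydig cells of pig 3, whereas at or above 1% A2M was at 2911, 3853 and 2717 CPM and AGT, no longer lowest there, at 603, 637 and 653 CPM. PPP1R1A and PPP1R1B, inhibitors of protein phosphatase that act when phosphorylated by the cAMP-dependent kinase, rose together, with adjusted p of 0.00876 and 0.00253. PPP1R1A was at 126, 72.2 and 81.8 CPM against 8.81, 4.51 and 2.49 CPM (log2 change 4.24, SE 0.54). PPP1R1B was at 66.03, 50.96 and 60.5 CPM against 3.58, 4.14 and 3.45 CPM (log2 change 4.0004, SE 0.36), and at or above 1% at 79.9, 71.8 and 137 CPM. Further genes among the 14 of largest change were ACSF2, an acyl-CoA synthetase (log2 change 4.12 with SE 0.43, adjusted p = 0.00468), BCKDHB, a subunit of the enzyme that degrades branched-chain keto acids (log2 change 3.87 with SE 0.37, adjusted p = 0.00286), and CHST8, a sulfotransferase of sugar chains (log2 change 4.34 with SE 0.70, adjusted p = 0.0237), which lost its call without any 1 of the pigs. GLDN, an adhesion protein of axons (log2 change 5.03 with SE 0.78, adjusted p = 0.0212), VGLL3, a cofactor of TEAD transcription factors (log2 change 4.67 with SE 0.84, adjusted p = 0.0389), and CLIC5, a chloride channel protein of the cytoskeleton (log2 change 4.49 with SE 0.54, adjusted p = 0.00768), completed them with HSD17B4, one of the steroid enzymes. C15orf48, which codes for a small mitochondrial protein induced in inflammation, was the gene that fell, at 15.3, 25.5 and 24.4 CPM against 65.5, 81.7 and 132 CPM (log2 change -2.11 with SE 0.37, adjusted p = 0.0322), and it lost its call without any 1 of the pigs.

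**Figure D3:**
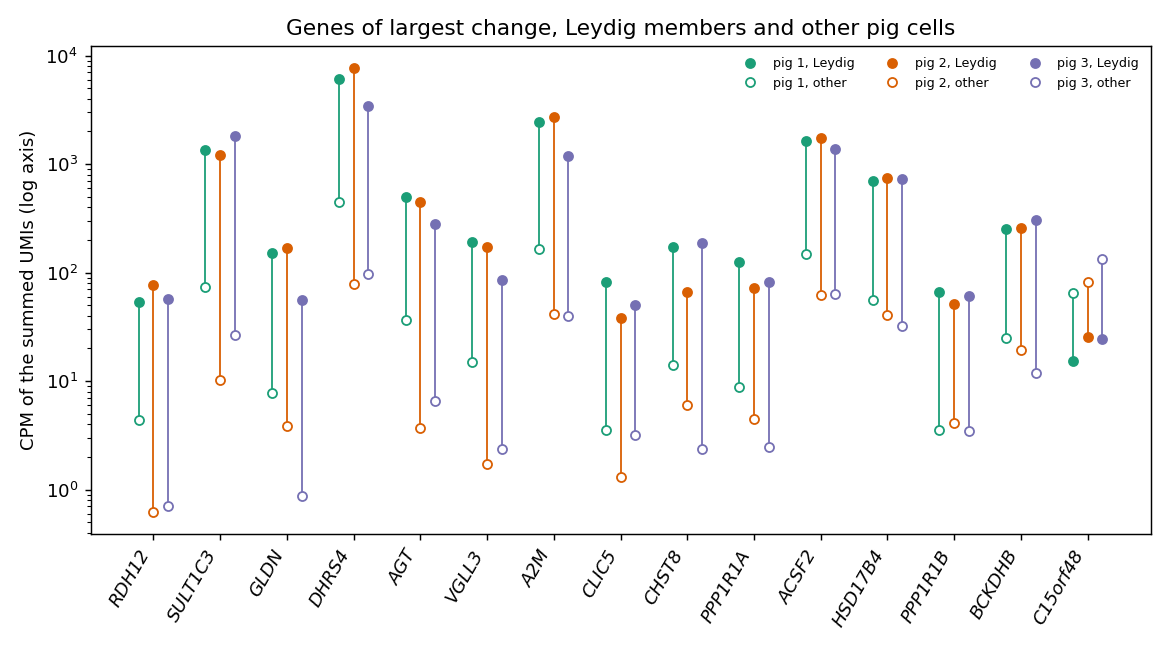
CPM of the summed UMIs (log axis) of the genes with the largest change, in Leydig cells (filled) and other cells (open) of each pig, with a line joining the values of a pig. Filled points lie above open ones in all 3 pigs for 14 genes and below them for C15orf48, where the mean was 21.7 ± 5.58 CPM against 93.2 ± 34.9 CPM (SD, n = 3).

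The count of calls depended on how the spread between pigs was modelled. Leydig and other cells of a pig come from the same library, and with the animal as a replicate block 1000 genes were higher (6.57%) and 998 lower (6.56%). With the selected cells at or above 1% the counts were 581 (3.82%) and 336 (2.21%). All 115 calls were kept in both. On simulated data, false calls of the blocked fit against other cells exceeded the nominal share, and more so than without the block. Counts and p-values of that fit are therefore not secure. Leaving out pig 2 gave 0 calls, although 1193 genes had an unadjusted p under 0.05 in edgeR, and leaving out pig 1 or pig 3 gave 24 and 57. Among the genes of largest change RDH12, SULT1C3, AGT and VGLL3 also lost their call without pig 3. GLDN and CLIC5 also lost it without pig 1, and CHST8 in both cases.

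Enzymes that act on steroids, and the proteins that feed them electrons or sulfate were among the genes that rose. Of 31 genes in this list 24 are listed by symbol in pig and 23 were tested, and 6 were higher and 0 lower, against 0.749% and 0.00657% of all genes. The list's median log2 fold change was 0.82, against -0.25 over all genes tested, and 15 of the 23 were higher in every pig, as were 15.2% of all genes. CYB5A, cytochrome b5, which favours androgen formation by CYP17A1, was at 6547, 5652 and 3606 CPM in Leydig cells of pigs 1, 2 and 3 and at 727, 631 and 214 CPM in other cells (log2 change 3.33 with SE 0.49, adjusted p = 0.0175). FDX1, the ferredoxin that passes electrons to CYP11A1, was at 2424, 1546 and 1157 CPM against 312, 132 and 96.7 CPM (log2 change 3.25 with SE 0.52, adjusted p = 0.0237). POR, which reduces CYP17A1 and aromatase, was at 266, 169.9 and 133 CPM against 52.02, 32.3 and 33.4 CPM (log2 change 2.30 with SE 0.39, adjusted p = 0.029). None of them, picked among the calls, overlapped with other cells. All 3 were highest in pig 1 and lowest in pig 3. At or above 1% none was lowest in pig 3, with 7795, 7749 and 8112 CPM for CYB5A, 2868, 2142 and 2566 CPM for FDX1 and 317, 237 and 278 CPM for POR. The gate did not use them, whereas CYP17A1, CYP11A1, STAR and INSL3, the markers that name the cell type, are gate genes and cannot check the label.

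HSD17B4, a peroxisomal enzyme that oxidises oestradiol and fatty acids, was at 702, 739 and 734 CPM in Leydig cells against 56.1, 40.7 and 32.4 CPM in other cells (log2 change 4.07 with SE 0.33, adjusted p = 0.00201), and at or above 1% at 836, 1037 and 1674 CPM. PAPSS2, which makes the sulfate donor of steroid sulfation, was at 422, 244 and 253 CPM against 35.8, 17.1 and 24.9 CPM (log2 change 3.59 with SE 0.42, adjusted p = 0.00768). SULT2A1, the enzyme that sulfates androgens, was at 387, 401 and 317 CPM against 46.5, 4.56 and 6.60 CPM. It did not pass the test (log2 change 4.28 with SE 0.84, adjusted p = 0.0567), nor did HSD11B2, which inactivates glucocorticoids (log2 change 4.10 with SE 0.78, adjusted p = 0.0515), or FDXR, the reductase that feeds FDX1 (log2 change 2.33 with SE 0.56, adjusted p = 0.131). With the animal as a block 11 genes of the list were higher and 1 lower, against 6.57% higher and 6.56% lower of all genes. With cells at or above 1% 10 were higher and 0 lower, against 3.82% and 2.21% of all genes. The gene lower under the block was HSD17B3, which forms testosterone. HSD17B3 was at 109.7, 115 and 25.5 CPM against 261, 296 and 34.1 CPM, lower in each pig, with adjusted p = 0.598 without the block and 4.9e-05 with it. The blocked fit gave too many false calls on simulated data, so this call is not secure.

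SCARB1, LIPA and SOAT1 rose among the genes of cholesterol uptake, storage and transport. Of 22 genes tested 3 were higher and 0 lower, against 0.749% and 0.00657% of all genes, with a median log2 fold change of 0.47 against -0.25 over all genes. SCARB1, the receptor that takes up cholesteryl esters from lipoproteins, was at 288, 204 and 286 CPM in Leydig cells against 26.1, 61.7 and 31.9 CPM in other cells (log2 change 2.71 with SE 0.39, adjusted p = 0.0167). LIPA, the lysosomal lipase that frees cholesterol, was at 376, 274 and 207 CPM against 48.99, 36.5 and 47.1 CPM (log2 change 2.71 with SE 0.34, adjusted p = 0.00871). SOAT1, which esterifies cholesterol for storage, was at 203, 147 and 116 CPM against 31.7, 33.4 and 24.8 CPM (log2 change 2.39 with SE 0.35, adjusted p = 0.0167). None of the 3, picked among the calls, overlapped with other cells. APOE, an apolipoprotein, was at 3372, 888 and 1105 CPM against 321, 86.7 and 113 CPM and missed the threshold (log2 change 3.40 with SE 0.69, adjusted p = 0.0644). TSPO, a cholesterol-binding protein of the outer mitochondrial membrane, was at 8.25, 27.6 and 52.02 CPM against 40.2, 43.5 and 141 CPM, lower in each pig, with adjusted p = 0.525 without the block and 1.8e-05 with it. Its call with the block is not secure either, given the false calls of that fit on simulated data. The block gave 9 higher and 1 lower genes of this list, against 6.57% higher and 6.56% lower of all genes, and cells at or above 1% gave 6 and 0, against 3.82% and 2.21% of all genes.

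Genes of cholesterol synthesis lay above the level of other cells in most cases, though few passed the test. Of 22 genes tested 2 were higher and 0 lower, against 0.749% and 0.00657% of all genes. The median log2 fold change was 1.53, against -0.25 over all genes. In every pig 17 were higher and 0 lower, as were 15.2% and 36.2% of all genes. LSS, which closes the sterol rings, was among the genes called, at 124, 102 and 110.4 CPM against 14.04, 14.7 and 10.1 CPM (log2 change 3.13 with SE 0.33, adjusted p = 0.00489). Picked among the calls, it did not overlap with other cells, and at or above 1% it was at 147, 137 and 243 CPM. HMGCS1, the enzyme that forms hydroxymethylglutaryl-CoA, was at 191, 95.6 and 772 CPM against 27.2, 45.5 and 54.04 CPM (log2 change 3.07 with SE 0.68, adjusted p = 0.0914). It was highest in pig 3 and did not pass the test. With the animal as a block 18 of the 22 were higher and 0 lower, against 6.57% higher and 6.56% lower of all genes, and with cells at or above 1% 13 were higher and 0 lower, against 3.82% and 2.21% of all genes.

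Enzymes that remove peroxides and quinones were among the called genes. Of 23 genes tested 6 were higher and 0 lower, against 0.749% and 0.00657% of all genes, with a median log2 fold change of 0.59 against -0.25 over all genes. MGST1, a membrane-bound glutathione transferase, was at 3014, 2788 and 2724 CPM in Leydig cells against 259.8, 161 and 212 CPM in other cells (log2 change 3.76 with SE 0.31, adjusted p = 0.00201). PRDX3, the peroxiredoxin of mitochondria, was at 676, 837 and 681 CPM against 77.3, 94.7 and 68.5 CPM (log2 change 3.18 with SE 0.29, adjusted p = 0.00253). NQO1, a quinone reductase, was at 272, 380.1 and 261 CPM against 26.97, 39.4 and 28.7 CPM (log2 change 3.26 with SE 0.31, adjusted p = 0.00286). None of the 3, picked among the calls, overlapped with other cells. At or above 1% MGST1 was at 3643, 3853 and 6147 CPM, PRDX3 at 813, 1165 and 1513 CPM and NQO1 at 311, 537 and 559 CPM, highest in pig 3. CAT, catalase, rose as well, as did GSTO1, another glutathione transferase (log2 change 2.19 with SE 0.32, adjusted p = 0.0167), and GCLM, a subunit of the enzyme that starts glutathione synthesis (log2 change 1.92 with SE 0.35, adjusted p = 0.0415). GPX3, a secreted glutathione peroxidase, was at 926, 134 and 268 CPM against 68.5, 17.2 and 7.97 CPM and GSTA1 at 887, 3648 and 1485 CPM against 291, 576 and 134 CPM, without a call. GSTA1 belongs to a family of near-identical copies, so its count is uncertain. The block gave 11 higher and 3 lower genes, against 6.57% higher and 6.56% lower of all genes, and cells at or above 1% gave 10 and 0, against 3.82% and 2.21% of all genes.

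Among transcription factors of gonadal somatic cells, NR2F1 and CEBPB rose. Of 30 genes tested 2 were higher and 0 lower, against 0.749% and 0.00657% of all genes, with a median log2 fold change of -0.27 against -0.25. NR2F1, an orphan nuclear receptor of the interstitium, was at 57.8, 31.9 and 29.7 CPM against 6.61, 5.64 and 5.18 CPM (log2 change 2.82 with SE 0.42, adjusted p = 0.0187), and CEBPB, a factor induced by cAMP in steroid-producing cells, was at 43.6, 59.5 and 33.98 CPM against 7.98, 4.97 and 12.1 CPM (log2 change 2.44 with SE 0.43, adjusted p = 0.0322). NR5A1, the receptor whose motif is marked in the sequences, was at 107, 50.96 and 57.3 CPM against 13.2, 22.01 and 6.81 CPM, higher in each pig, without passing the test (log2 change 2.39 with SE 0.52, adjusted p = 0.0859). With cells at or above 1% its adjusted p was 0.0025. NR2F2, a close relative of NR2F1, was at 292, 236 and 128 CPM against 28.1, 56.7 and 69.9 CPM (log2 change 2.11 with SE 0.43, adjusted p = 0.0656), and GATA4, a factor shared by Leydig and Sertoli cells, had a log2 fold change of 0.31 (SE 0.57). The block gave 7 higher and 6 lower genes of this list, against 6.57% higher and 6.56% lower of all genes, and cells at or above 1% gave 7 and 1, against 3.82% and 2.21% of all genes.

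Of the genes for hormones, receptors and signals, AGT was called. Of 22 genes for luteinising hormone, prolactin and cAMP signalling 0 passed the edgeR test, with 2 higher and 2 lower at an unadjusted p under 0.05 and 1 higher and 1 lower with DESeq2. PRKAR2B, a regulatory subunit of the cAMP-dependent kinase, was at 118, 93.4 and 94.5 CPM against 39.1, 39.98 and 26.6 CPM (log2 change 1.55 with SE 0.32, adjusted p = 0.0739). Of 22 genes for hedgehog, PDGF, Notch and steroid hormone signals 0 passed, with 1 higher and 0 lower at an unadjusted p under 0.05 and 0 with DESeq2. Among 31 secreted factors AGT was the 1 gene called with edgeR, and 3 were higher and 0 lower with DESeq2. Over all genes 0.749% were higher and 0.00657% lower with edgeR, 5.57% and 4.29% at an unadjusted p under 0.05, and 2.58% and 0.197% with DESeq2. The block gave 2 higher and 2 lower genes in each of the 2 signalling lists and 4 and 3 among the secreted factors, against 6.57% higher and 6.56% lower of all genes. Cells at or above 1% gave 2 and 0, 1 and 1, and 3 and 0, against 3.82% and 2.21% of all genes. INSR, the insulin receptor, was at 119, 67.9 and 22.3 CPM against 28.1, 15.1 and 6.81 CPM (log2 change 2.11 with SE 0.67, adjusted p = 0.294), higher in each pig, and INHA, the inhibin subunit made by Sertoli and Leydig cells, was at 696, 662 and 255 CPM against 1371, 1412 and 196 CPM (log2 change -0.89 with SE 0.65, adjusted p = 0.654), where the order of the groups changed between pigs.

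**Figure D4:**
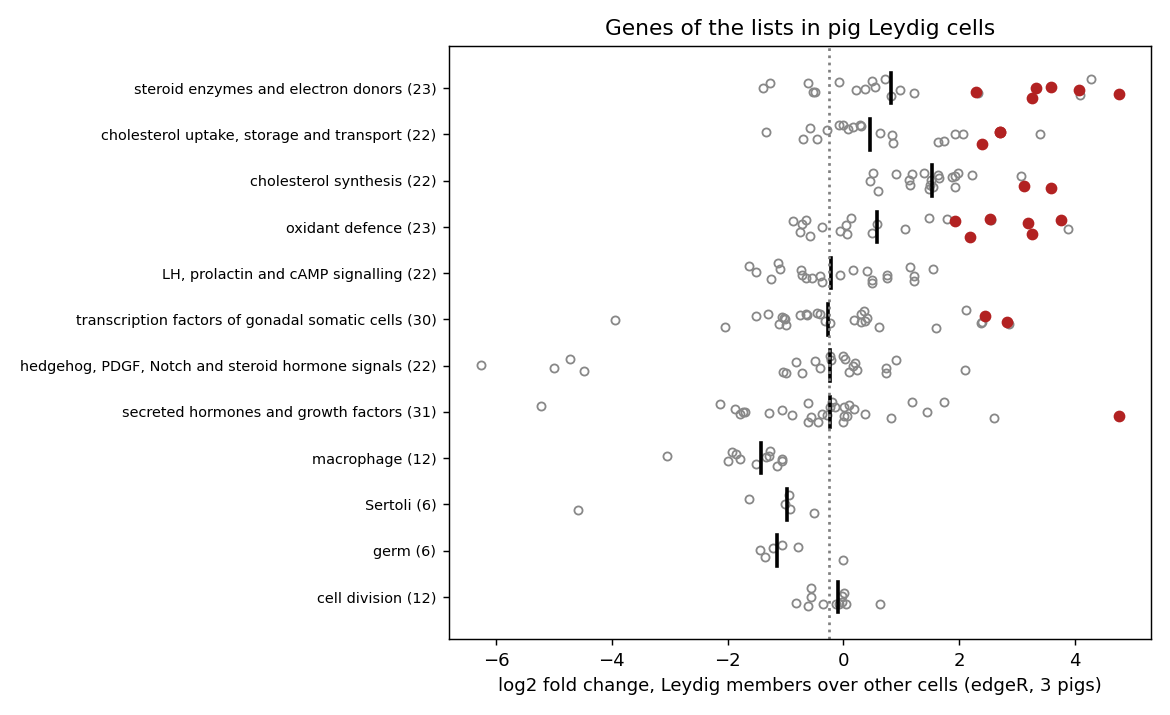
Log2 fold change of Leydig over other cells (horizontal axis) for each tested gene of the lists, with the number of genes in brackets. Filled points passed the test, short bars are medians of the lists, and the dotted line is the median of all 15211 genes. Medians of cholesterol synthesis (1.53) and of the steroid enzymes (0.82) lie right of that line, and those of macrophage (-1.43) and germ cell (-1.14) genes left of it.

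Transcripts of other cell types were present in Leydig cells, mostly below their level in other cells and with no marker called. The germ, Sertoli and lymphocyte lists contain the genes on which cells were dropped, which were left out of the test. Macrophage genes stood at a median log2 fold change of -1.43 over 12 genes, of which 10 were lower and 0 higher in every pig, where 36.2% and 15.2% of all genes were. The edgeR test called 0 of them, with 4 lower at an unadjusted p under 0.05 and 1 lower with DESeq2, and the block called 11 lower. Over all genes 4.29% were lower at that level, 0.197% with DESeq2 and 6.56% with the block. Their summed level was 157, 119 and 744 CPM in Leydig cells of pigs 1, 2 and 3, against 689, 303 and 2152 CPM in other cells. The value was highest in pig 3, where C1QB, a complement gene, led with 180.5 CPM. In the cells of pig 3 at or above 1% the sum was 318 CPM with MRC1 at 0, and in those under 1% it was 1063 CPM. For the germ cell list the sums were 222, 140.1 and 378 CPM against 699.9, 328 and 615 CPM, led by UCHL1, and at or above 1% they were 85.7, 87.4 and 127 CPM. In selected cells under 1% they were 809, 252 and 566 CPM, above other cells in pig 1 and below them in pigs 2 and 3. Whether the selected cells under 1% were Leydig cells was not tested. For the Sertoli cell list the sums were 713, 860.0 and 512 CPM against 1323, 1591 and 572 CPM, with AMH and AARD at 0 in Leydig cells of all pigs.

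The stromal and myoid list had a summed level of 601, 2361 and 1753 CPM against 425, 1969 and 1915 CPM in other cells and a median log2 fold change of -0.11. At or above 1% the sum was 672, 2264 and 3445 CPM, higher than in other cells in each pig, where over all selected cells it was lower in pig 3. COL3A1, a collagen of loose connective tissue, was at 316, 656 and 416 CPM against 43.2, 164 and 211 CPM (log2 change 1.73 with SE 0.50, adjusted p = 0.242), higher in each pig. Endothelial genes summed to 25.9, 231 and 375 CPM against 43.2, 459 and 493 CPM and lymphocyte genes to 40.1, 42.5 and 46.7 CPM against 95.5, 66.03 and 207 CPM. Erythroid genes, led by HBB in pigs 1 and 3, summed to 237, 6.37 and 308 CPM against 123, 13.5 and 427 CPM. Immediate early and heat shock genes, which tissue digestion can induce, summed to 2155, 5323 and 3849.8 CPM against 3594, 7732 and 4594 CPM. The edgeR test called 0 genes of the stromal, Sertoli, germ, lymphocyte, endothelial, erythroid, cell division and immediate early lists. At an unadjusted p under 0.05, COL3A1 was the 1 gene higher, and 1, 1, 2 and 1 genes of the Sertoli, germ, lymphocyte and endothelial lists were lower, and DESeq2 called COL3A1 and 1 macrophage gene. Over all genes 5.57% were higher and 4.29% lower at that level, and 2.58% and 0.197% with DESeq2. The block called 4 of 11 stromal, 1 of 6 Sertoli, 4 of 6 germ, 2 of 7 lymphocyte, 3 of 9 endothelial, 2 of 12 cell division and 6 of 14 immediate early genes lower, and 1 stromal and 1 immediate early gene higher, against 6.56% lower and 6.57% higher of all genes. Cells at or above 1% gave 3 macrophage, 2 germ, 1 lymphocyte and 3 cell division genes lower and 1 stromal gene higher, against 2.21% lower and 3.82% higher of all genes. The part of other cell types in the results was not tested beyond these values.

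The share of cells with transcripts of cell division genes was compared between Leydig and other cells at equal depth, and the pigs differed in direction. With each cell thinned to 696 UMIs, 12.4%, 28.03% and 25% of Leydig cells in pigs 1, 2 and 3 showed at least 1 of 12 cell division genes with a UMI, against 23.8%, 16.7% and 32% of other cells. The share was lower in pigs 1 and 3 and higher in pig 2. The means were 21.8% ± 8.29 and 24.2% ± 7.64 (SD, n = 3; two-sided exact permutation test, p = 0.7, where 3 against 3 cannot give less than 0.1 and so cannot reach 0.05). At or above 1% the mean was 18.4% ± 8.55 (exact permutation p = 0.5). The shares there were 10.2%, 27.3% and 17.6% in pigs 1, 2 and 3, again higher than in other cells in pig 2. In thinned cells with at least 2 of the genes required, the shares were 2.17%, 5.30% and 12.1% against 8.28%, 4.53% and 13.8%. Unthinned shares with at least 1 gene were 16.1%, 51.5% and 66.1% against 34.1%, 49.6% and 72.6%. In unthinned cells at or above 1% they were 13.1%, 47.5% and 58.2%, lower than in other cells in all 3 pigs (exact permutation p = 0.5). That comparison was not at equal depth, since these cells were shallower than the other cells. The permutation test did not pair the classes of a pig. Summed over the 12 genes, led by NUSAP1 or PCNA, the level was 445, 550.0 and 1233 CPM in Leydig cells and 199, 512 and 504 CPM in those at or above 1%, against 945, 512 and 1149 CPM in other cells. In the selected cells under 1% it was 1505, 631 and 1777 CPM, above other cells in all 3 pigs.

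Stromal and myoid cells share the interstitium with Leydig cells, and a comparison with them asks what sets the steroid-producing cells apart from their neighbours. A gate on stromal markers held 1474 cells, 95, 878 and 501 in pigs 1, 2 and 3. Of 13092 genes tested 149 were higher in Leydig cells (1.14%) and 39 lower (0.298%) with edgeR. Steroid enzymes were higher in 8 of 22 cases and lower in 0, and these included DHRS4 (log2 change 5.02 with SE 0.57, adjusted p = 0.000787), HSD17B4 (log2 change 4.45 with SE 0.36, adjusted p = 7.03e-05), SULT2A1 (log2 change 5.39 with SE 0.73, adjusted p = 0.00197) and HSD11B2 (log2 change 4.31 with SE 0.73, adjusted p = 0.00971). Cholesterol synthesis was higher in 4 of 22, among them LSS, HMGCS1 and MSMO1, a sterol demethylase, and oxidant defence in 7 of 23. CBR1, a carbonyl reductase, was at 263, 136 and 102 CPM in Leydig cells and 10.8, 0.943 and 0.613 CPM in stromal cells (log2 change 7.58 with SE 0.75, adjusted p = 0.000358). RDH12 was at 53.1, 76.4 and 57.3 CPM against 0, 0.943 and 0.408 CPM (log2 change 6.58 with SE 0.58, adjusted p = 0.000119). Neither, picked among the calls, overlapped with stromal cells. FBP2, a fructose bisphosphatase, had 187 UMIs in Leydig cells and 1 in stromal cells, a ratio of 763 with a 95% counting interval of 135 to 30309. It stood at 175, 36.1 and 23.4 CPM in Leydig cells of the 3 pigs, and without pig 1, where it lost its call, the counts were 39 and 1 and the ratio 252 (42.7 to 10214). RHBG, an ammonium transporter (log2 change 6.04 with SE 0.81, adjusted p = 0.00183), GLDN (log2 change 5.65 with SE 0.80, adjusted p = 0.00279) and LPO, lactoperoxidase (log2 change 5.64 with SE 1.201, adjusted p = 0.0357), were the other named genes that rose, and LPO lay at 387, 142 and 97.7 CPM against 75.4, 2.12 and 2.04 CPM.

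The 6 named genes that were lower in Leydig than in stromal cells included BGN, MFAP2 and CXCL12. BGN, the proteoglycan biglycan, was at 11.8, 29.7 and 37.2 CPM in Leydig cells and 399, 158 and 189.9 CPM in stromal cells (log2 change -3.05 with SE 0.48, adjusted p = 0.00584). MFAP2 and MFAP4, proteins of elastic microfibrils, were lower as well (log2 change -3.19 with SE 0.58, adjusted p = 0.0163, and log2 change -3.30 with SE 0.64, adjusted p = 0.0211). CXCL12, a chemokine of stromal cells, was at 48.3, 72.2 and 43.5 CPM against 1735, 215 and 156 CPM (log2 change -3.47 with SE 0.77, adjusted p = 0.041), and stromal values ranged far more than Leydig values. SERPINF1, a secreted serpin (log2 change -3.02 with SE 0.60, adjusted p = 0.0248), and RCN3, a chaperone of collagen synthesis (log2 change -2.88 with SE 0.62, adjusted p = 0.0361), completed the 6 named genes. Among 29 secreted factors tested AGT was higher and 4 were lower, CXCL12, PENK, IGFBP4 and PTN, against 1.14% higher and 0.298% lower of all genes. The block gave 708 higher (5.41%) and 402 lower (3.07%) genes, cells at or above 1% gave 596 (4.60%) and 334 (2.58%), and without pig 1, whose stromal sum rests on 95 cells, 11 were higher and 0 lower. Scaling by library size alone, which moved the median log2 fold change of all genes from -0.07 to -0.21, gave 104 and 31. Of the 12 named genes, CBR1, RDH12 and LPO kept their call without pig 1. CBR1 and RDH12 were called in all 12 alternatives and LPO in 9. The log2 change of LPO was 3.35 at its lowest among the alternatives.

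Sertoli cells, the somatic cells inside the tubules, share NR5A1 and GATA4 with Leydig cells. The Sertoli gate held 24, 204 and 12 cells, so this comparison used pigs 1 and 2 alone, and the sum of pig 1 held only 30737 UMIs. Of 9880 genes tested 245 were higher in Leydig cells (2.48%) and 56 lower (0.567%) with edgeR. With only 2 pigs, edgeR took the spread almost wholly from all genes together. Its small p-values in this comparison therefore do not measure the spread of a single gene between pigs. DESeq2 called 70 higher (0.709%) and 3 lower (0.0304%). Scaling by library size alone moved the median log2 fold change of all genes from 0.12 to -0.03 and gave 269 and 155. Steroid enzymes were higher in 9 of 19 cases, among them SULT2A1, HSD11B2, HSD17B4 and CYB5A. The 1 lower gene was HSD17B3, at 109.7 and 115 CPM in Leydig cells and 748 and 452 CPM in Sertoli cells of pigs 1 and 2 (log2 change -2.04 with SE 0.54, adjusted p = 0.00963). SULT1C3 was at 1354 and 1221 CPM against 32.5 and 4.42 CPM (log2 change 7.88 with SE 0.80, adjusted p = 1.59e-19). Several genes were close to absent from Sertoli cells. FAM198B, a Golgi protein, had 177 UMIs in Leydig cells and 0 in Sertoli cells, at least 52.0-fold higher when 3 counts are taken as the floor of the summed group, and RDH12 with 81 and 0 UMIs was at least 23.8-fold higher. With 1 to 3 Sertoli UMIs, the ratio was 213 for VGLL3 (95% counting interval 37.9 to 8454), 152 for SULT2A1 (51.7 to 738) and 174 for LPO (47.8 to 1441). These ratios pool both pigs, and pig 1 gave most Leydig but few Sertoli UMIs. In pig 2 alone FAM198B was at least 42.4-fold and RDH12 at least 28.8-fold higher, and the ratio was 195 for VGLL3 (33.9 to 7778), 151 for SULT2A1 (51.0 to 740.3) and 80.5 for LPO (21.4 to 678).

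Of the other lists, oxidant defence was higher in 10 of 23 genes, cholesterol uptake in 5 of 20 and cholesterol synthesis in 2 of 22, with LSS among them, against 2.48% of all genes. DESeq2 gave 3, 4 and 1 higher genes in these 3 lists, against 0.709% higher and 0.0304% lower of all genes. NR2F2 (log2 change 4.27 with SE 0.72, adjusted p = 6.67e-07), NR2F1 and CEBPB were the 3 of 22 transcription factors called higher in Leydig than in Sertoli cells. DESeq2 called 1 of the 22 higher. INHA was lower in Leydig cells (log2 change -1.52 with SE 0.47, adjusted p = 0.044), at 696 and 662 CPM against 2863 and 2067 CPM, but was not called with DESeq2 (adjusted p = 0.118). FILIP1L, a regulator of cell migration (log2 change -2.47 with SE 0.63, adjusted p = 0.0065), G0S2, an inhibitor of lipolysis (log2 change -2.74 with SE 0.78, adjusted p = 0.0216), and GLIPR1, a secreted cysteine-rich protein (log2 change -3.06 with SE 0.86, adjusted p = 0.0204), were lower as well. ENPP5, TMEM178A and EMB, a nucleotidase relative, a membrane protein and the adhesion protein embigin, had log2 fold changes of -3.04, -3.00 and -2.68. With the animal as a block these 3 lost their call, at adjusted p of 0.06, 0.074 and 0.23, and the counts were 244 higher (2.47%) and 35 lower (0.354%). Cells at or above 1% gave 463 (4.87%) and 228 (2.40%). C1QB and HBB, genes of macrophages and red cells, were also called higher in Leydig than in Sertoli cells (log2 change 3.65 with SE 1.15, adjusted p = 0.0482, and log2 change 6.12 with SE 0.98, adjusted p = 1.201e-07), and neither was called with the block, at adjusted p of 0.15 and 0.11. The source of their transcripts was not tested.

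Cattle Leydig cells, 758, 615 and 622 of them selected by the same gate, served to ask whether the difference between Leydig and other cells was the same in both species. Over 12735 genes with a symbol in both gene tables, the difference was larger in pig for 18 (0.141%) and smaller for 11 (0.0864%) in an edgeR test of the interaction of species and cell class. The other cells of cattle 1 held 22180.5 CPM of INSL3, against 986 and 1281 CPM in cattle 2 and 3, and without cattle 1 the counts were 20 and 6. Scaling by library size alone moved the median difference of all genes from -0.19 to 0.28 on the log2 scale and gave 62 and 7. HSD17B4, at 702, 739 and 734 CPM in pig Leydig cells against 56.1, 40.7 and 32.4 CPM in other pig cells, was at 43.4, 84.7 and 94.5 CPM in cattle Leydig cells and 58.1, 73.4 and 82.7 CPM in other cattle cells (log2 difference of the effects 3.52, SE 0.43, adjusted p = 0.00531). It was thus higher in pig Leydig cells in every pig and level in cattle. PPP1R1B was at 1.204, 0 and 2.64 CPM in cattle Leydig cells and 5.81, 2.88 and 3.93 CPM in other cattle cells, against 66.0, 51.0 and 60.5 CPM in pig Leydig cells (difference 4.77, SE 0.73, adjusted p = 0.0169). A2M was at 81.9, 326 and 437 CPM in cattle Leydig cells and 221, 426 and 436 CPM in other cattle cells (difference 4.58, SE 0.85, adjusted p = 0.0345). A2M was below other cells in cattle 1 and 2 and level with them in cattle 3. The cattle Leydig values of PPP1R1B rest on 1, 0 and 9 UMIs, too few to give a direction within cattle. Among the steroid enzymes PAPSS2 was the other gene called (2.91, SE 0.55, adjusted p = 0.0452), so that 2 of 23 were higher, and GSTO1 was the 1 oxidant defence gene of 20.

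In the opposite direction ALDH1A1, which makes retinoic acid, was above other cells in Leydig cells of every cattle library. It was at 1848, 5587 and 5112 CPM in cattle Leydig cells and 391, 246 and 209 CPM in other cattle cells, and at 3.54, 2.12 and 1.06 CPM in pig Leydig cells and 4.95, 14.03 and 2.18 CPM in other pig cells (difference -6.06, SE 0.97, adjusted p = 0.0169). The pig Leydig values rest on 3, 1 and 1 UMIs, against 18, 271 and 43 in other cells, too few to give a direction in pigs 1 and 3. CTSF, a lysosomal protease, was at 572, 563 and 397 CPM in cattle Leydig cells against 179.7, 112 and 112 CPM, and at 127, 95.6 and 80.7 CPM against 135, 146 and 110.1 CPM in pig (difference -2.78, SE 0.44, adjusted p = 0.0169). For both the ratios of the species did not overlap. Levels of a gene in different species also depend on how well its 3′ end is annotated, so only the ratio within a species was tested. No gene of cholesterol synthesis was called, with log2 differences of the cholesterol synthesis list at a median of -1.01, against -0.19 over all genes. With the animal as a block 311 genes were higher (2.44%) and 591 lower (4.64%), 11 of 21 cholesterol synthesis genes among the lower and 0 among the higher. On simulated data, most calls of this blocked fit were false. Cells at or above 1% gave 121 (0.951%) and 122 (0.959%), none of them a gene of cholesterol synthesis. Without pig 2 or without cattle 2, edgeR called 0 genes, with 803 and 595 at an unadjusted p under 0.05.

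**Figure D5:**
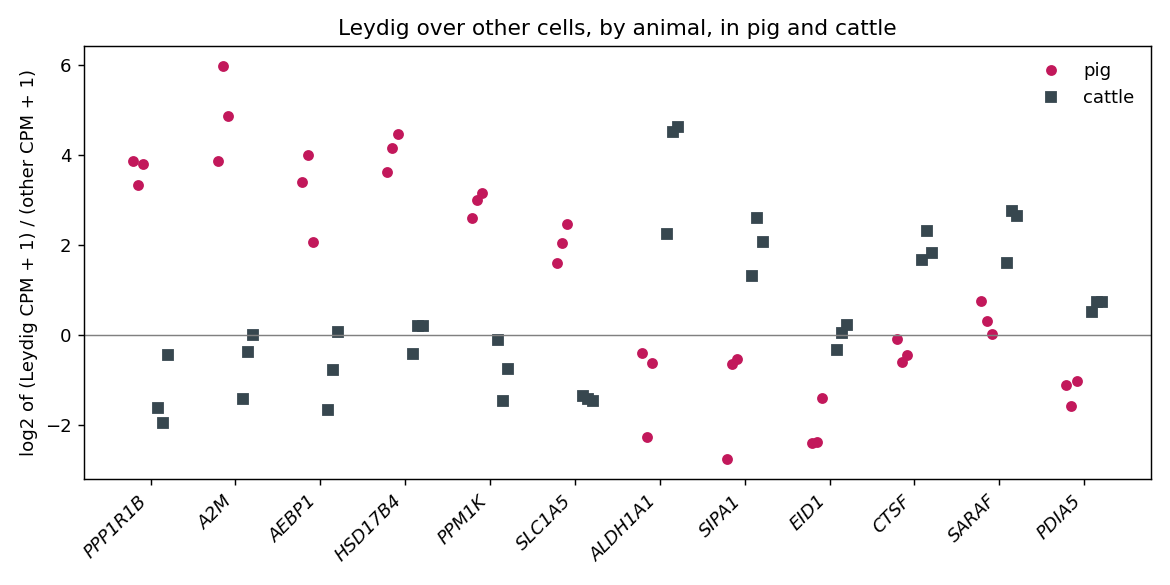
Log2 ratio of Leydig over other cells within each animal (vertical axis, CPM plus 1 on both sides) for the 12 named genes of the species comparison, in pigs (circles) and cattle (squares). Pig ratios lie above all cattle ratios for the 6 genes on the left and below them for the 6 on the right, where ALDH1A1 has the largest difference, -6.06 on the log2 scale.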

How the data were processed

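Single-cell libraries from the testes of 3 pigs and 3 cattle were analysed. Per the labels and methods, the authors made the deposited count matrices, which hold raw UMI counts per gene and barcode, with Cell Ranger 2.1.0 and the builds Sscrofa11.1 and ARS-UCD1.2. The headers of the pig matrices give software version 3.0.2, and the pig files hold only barcodes with at least 500 UMIs. Whether counting used the strand is not given in the sources used here, so reads of overlapping genes may not have been told apart. All libraries were sequenced in 1 lane. The UMI minimum of a library is the 99th percentile of its 3000 largest totals divided by 10. Members and gene lists were chosen with earlier results of these data known.

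Raw counts were summed per animal and cell class, since cells are not replicates, and a class needed 20 cells in an animal. The quasi-likelihood test of edgeR 4.0.16 (R 4.3.3) compared the sums, normalised by TMM, over genes with at least 10 counts, with Benjamini-Hochberg adjustment over all genes tested and a threshold of 0.05. The scripts were tested on simulated data, where false calls exceeded the nominal share in each pig comparison without the block, and with it against other cells, against stromal cells and between species, and few changed genes were recovered. CPM values are shares of all UMIs of a sum. Named genes were the 14 of largest and the 8 of smallest log2 fold change against other cells, or 6 at each end for the other comparisons, among called genes with a symbol, the same direction in every pig and a mean of at least 50 CPM in the higher class. Members of the lists that were called or that define a list's role were named besides, and values of some members are not reported here. Animals of a species were treated as replicates, and p-values rest on the spread between them, which edgeR shares across genes. Against Sertoli cells, with 2 pigs, that spread came almost wholly from all genes together. Leydig and other cells of the same animal deviated together from their class means (r of 0.637, 0.715 and 0.747 in pigs 1, 2 and 3, and 0.335, 0.433 and 0.620 with stromal cells), so the animal paired the sums and entered an alternative as a replicate block. DESeq2 1.42.0, library size scaling, other count minimums, a gate of 8 UMIs, selected cells without 2 macrophage, endothelial or erythroid markers, every barcode from 500 UMIs and leaving out each animal were further alternatives. Shares of cells have exact binomial intervals (scipy 1.17.1), which, like Poisson intervals, cover counting error only.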

Additional observations from a re-analysis of the deposited data

Results flagged for a closer look

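The 12 genes named in the species comparison are listed for a closer look because the difference between Leydig and other cells was not the same in pig and cattle by the interaction test. In log2 units, the pig difference minus the cattle difference was 4.77 for PPP1R1B, 4.58 for A2M, 3.60 for AEBP1, 3.52 for HSD17B4, 3.29 for PPM1K and 3.26 for SLC1A5. It was -6.06 for ALDH1A1, -3.56 for SIPA1, -2.89 for EID1, -2.78 for CTSF, -2.54 for SARAF and -2.42 for PDIA5. The 3 pigs did not overlap with the 3 cattle in the ratio of Leydig to other cells for any of the 12. AEBP1, a collagen-binding protein of connective tissue, was at 223, 214 and 71.1 CPM in pig Leydig cells and 20.4, 12.4 and 16.2 CPM in other pig cells, against 16.9, 39.6 and 48.1 CPM and 55.8, 68.96 and 45.97 CPM in cattle. SLC1A5, a glutamine transporter, was at 49.5, 121 and 84.9 CPM against 15.7, 28.7 and 14.5 CPM in pig, and at 3.61, 2.37 and 2.93 CPM against 10.8, 8.002 and 9.84 CPM in cattle. PPM1K, the phosphatase that activates the branched-chain ketoacid dehydrogenase, was at 185, 302 and 177 CPM against 29.7, 36.8 and 19.05 CPM in pig and at 12.04, 8.71 and 14.96 CPM against 13.2, 25.8 and 25.9 CPM in cattle. Among genes with a negative difference, SARAF, a regulator of calcium entry, was above other cells in every library of both species and more so in cattle, with 74.3, 104 and 82.8 CPM against 43.8, 83.2 and 82.1 CPM in pig and 582, 995 and 831 CPM against 193, 147 and 133 CPM in cattle. All 12 lost their call without pig 2 and without cattle 2. Without cattle 3 only PPP1R1B and HSD17B4 of them kept it. EID1 lost its call without any 1 of the animals, and SIPA1 kept its call only without pig 3.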

How the results depend on the processing

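For the 136 single genes followed through the alternatives, 1325 values kept direction and call, 172 lost and 62 gained the call, and none turned its direction. Counts of calls moved more. Against other cells (114 higher and 1 lower), the replicate block of the animal gave 1000 and 998, DESeq2 392 and 30, a minimum of 1 count 220 and 9, a gate of 8 UMIs 309 and 19, cells without markers of macrophages, endothelium or red cells 320 and 51, and cells at or above 1% 581 and 336. Every barcode from 500 UMIs gave 3 lower, and other cells with at most 1 gate UMI gave 5 lower. Leaving out an animal gave 0 to 57 higher and 0 to 0 lower. Against stromal cells (149 and 39), the replicate block gave 708 and 402, a minimum of 100 counts 77 and 9, the stricter gate 333 and 91, the marker-free cells 383 and 230, cells at or above 1% 596 and 334, and every barcode 362 and 316. DESeq2 gave 76 lower and a minimum of 1 count 73 lower. Leaving out an animal gave 11 to 251 higher and 0 to 129 lower. Against Sertoli cells (245 and 56), DESeq2 gave 70 and 3, a minimum of 100 counts 66 and 10, and cells at or above 1% 463 and 228. The block gave 35 lower, scaling by library size 155, the stricter gate 157, the marker-free cells 86 and every barcode 23. With 2 pigs, leaving out 1 leaves no residual degrees of freedom and was not run. In the species comparison (18 and 11), the block gave 311 and 591, scaling by library size 62 and 7, DESeq2 78 and 54, the stricter gate 49 and 39, the marker-free cells 47 and 33, and cells at or above 1% 121 and 122. A minimum of 1 count gave 20 lower and of 100 counts 7. Leaving out an animal gave 0 to 20 higher and 0 to 12 lower. The share of thinned cells with a UMI of a cell division gene was lower in Leydig cells by a mean difference of -2.36 percentage points. This difference ranged from -9.19 to 2.15 when a pig was left out, the latter without pig 1. The cause of these shifts was not tested.

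With 3 pigs and sums of 470944 to 941870 UMIs, a gene without a call was not shown to be unchanged. Why a gene had no call was not tested. The sums over all selected cells include those under 1%, and markers of other cell types had UMIs in them. LHCGR and HSD3B1 were not analysed here in pig.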

Other observations

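A few single genes called higher in pig Leydig than in other cells act in the breakdown of amino acids or ketone bodies. They were picked after their values were seen and belong to no list, so they are given as values. Other genes of these pathways were not counted, and nothing is read about the pathways. Over all genes 0.749% were higher. IVD, an enzyme of leucine breakdown, was at 136, 95.6 and 105 CPM in Leydig cells of pigs 1, 2 and 3 against 17.1, 20.8 and 12.4 CPM in other cells (edgeR log2 change 2.76 with SE 0.35, adjusted p = 0.00876), next to BCKDHB at 249.97, 259 and 306 CPM against 24.8, 19.3 and 11.8 CPM. PPM1K (log2 change 2.94 with SE 0.37, adjusted p = 0.00865), MCCC2, a carboxylase of the same pathway (log2 change 1.98 with SE 0.30, adjusted p = 0.0199), and ALDH6A1, of valine breakdown (log2 change 2.46 with SE 0.40, adjusted p = 0.0258), were higher too. HPD, of tyrosine breakdown, was at 22.4, 74.3 and 33.98 CPM against 1.38, 0.155 and 0.457 CPM (log2 change 6.43 with SE 0.77, adjusted p = 0.00768), and FAH, the last enzyme of that path, at 179, 195 and 102 CPM against 23.1, 21.3 and 13.8 CPM (log2 change 3.04 with SE 0.39, adjusted p = 0.00871). OXCT1, which activates ketone bodies for use, was at 103, 99.8 and 53.1 CPM against 20.6, 18.4 and 18.1 CPM (log2 change 2.17 with SE 0.36, adjusted p = 0.0269). None of these 8 genes overlapped between Leydig and other cells, but they were picked among the calls, so nothing is read from that.

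FXYD1 and VCAM1, picked in the same way, were also among the calls. FXYD1, a regulator of the sodium pump, was at 535, 565 and 385 CPM against 54.2, 30.97 and 22.1 CPM (log2 change 3.79 with SE 0.42, adjusted p = 0.00662). VCAM1, an adhesion molecule, was at 69.6, 67.9 and 61.6 CPM against 5.78, 3.73 and 14.1 CPM (log2 change 3.08 with SE 0.49, adjusted p = 0.0237).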
